A study of Mus musculus with 6 samples.

Results

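A local splicing variation (LSV) groups the splice junctions that start from 1 reference exon (a source LSV) or end in it (a target LSV), plus a retained intron at that end where there is one. The values below describe the LSVs that the authors' table of percent spliced in (PSI) holds for hepatocytes of mice on a high-fat diet and that their table for a low-fat diet does not hold. Members were chosen by LSV identifier alone, as those present in the first table and absent from the second. There were 531 such LSVs in 372 genes, of 27441 LSVs of the high-fat table (1.94%) and of 32799 LSVs in 7186 genes of either table. Of the members, 123 lay in 87 genes with no LSV at all in the low-fat table, and 408 lay in 285 genes with other LSVs there.

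The study compared hepatocytes from male C57BL/6J mice without a genetic change. Chow with 13.5% fat was fed to all mice up to the age of 8 weeks, followed for 12 weeks by either a high-fat diet (HFD) with 60% fat or a low-fat diet (LFD) with 10% fat. There were 3 libraries per diet, made as stranded mRNA libraries from hepatocytes of dissected livers. The deposited values are pooled per diet, so no value has a spread between animals and no replicate test could be made. A posterior standard deviation (SD) is given instead, which covers reads and not animals. Presence in a table is itself a readout. Which read minimum decides it was not stated in the labels or headers, and an LSV missing from the LFD table is not a PSI of 0 on that diet.

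Splicing joins exons and removes the introns between them. A donor (5′ splice site) at the end of an exon is joined to an acceptor (3′ splice site) at the start of a later one. An exon can be skipped, a donor or an acceptor can be exchanged for a neighbouring one, and an intron can be kept in the mature RNA. First exons from different promoters can also be joined to a common exon, which changes the start of the protein or only its 5′ UTR. PSI is the share of an LSV's reads that use a given junction or intron, here called an entry. The tables bound it between 0.0125 and 0.9875, so those values stand for near 0 and near 1.

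The member LSV of Pparg, the nuclear receptor PPAR gamma that drives adipocyte differentiation and lipid storage, joins a pair of upstream exons to 1 common exon. The spliced sequences are shown because they identify the isoforms, with 15 bases on each side of the splice and the common exon in capitals. They are GENCODE M21 transcripts on mm10, plus strand, at chr6:115383743-115439840 for the first and chr6:115422192-115439840 for the second.
Pparg-202 junction: gactaccctttactgAAATTACCATGGTTG
Pparg-201 junction: tgagcacttcacaagAAATTACCATGGTTG
The start codon of the first form lies in the common exon, visible as the ATG in its capitals. The second form starts in its own first exon and adds 90 coding bases, or 30 residues, which is the adipose form PPAR gamma 2.

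A further set of members exchanged acceptors 3 bases apart. Myc, the growth-promoting transcription factor, is shown as an example (chr15:61985951-61987507 and chr15:61985951-61987510, plus strand). The capitals mark the downstream exon, and the longer form starts with CAG.
Myc longer: gcgttggaaaccccgCAGACAGCCACGACG
Myc shorter: gcgttggaaaccccgACAGCCACGACGATG
Foxo3, a transcription factor held back by insulin signalling, had acceptors 4 bases apart in the 5′ UTR (chr10:42275541-42276526 and chr10:42275545-42276526, minus strand), and is shown because its longer form starts with other bases.
Foxo3 longer: agggaaggagccgagGTAGCTGGAGCTCGA
Foxo3 shorter: agggaaggagccgagCTGGAGCTCGAACCT

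In Myc the longer form took 0.688 (posterior SD 0.0382) and the shorter 0.303 (SD 0.0378), while a retained intron of the same LSV took 0.0131. The form with the extra CAG was thus the larger share of this LSV. In Foxo3 the longer form took 0.967 (SD 0.0246). Over all members, 37 LSVs were a simple choice between 2 acceptors, and in 9 of them (24.3%) the sites lay 3 bases apart, beside 16.1% of such LSVs listed for both diets and 23.5% of those listed for LFD only. Sites at most 12 bases apart made up 37.8% of the members' simple acceptor choices and 39.5% of those listed for both diets.

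The high-fat-only LSVs were few beside their counterpart. In these bulk samples, fewer cells of a type and less RNA per cell cannot be told apart. The LFD table held 32268 LSVs, of which 5358 (16.6%) in 2548 genes were missing from the HFD table, and 26910 LSVs in 5980 genes were in both. The share in genes without any LSV on the other diet was 23.2% for the HFD-only set and 38.5% for the LFD-only set. Most member genes had 1 member (248 of 372), 101 had 2 and 23 had 3 or more. Members often came as the 2 ends of 1 event: 222 shared a junction or intron with another member. The same gene could hold HFD-only and LFD-only LSVs. Of the 285 genes with other LSVs on LFD, 146 (51.2%) also held an LFD-only LSV, compared with 24.6% of the 6032 genes in both tables. Of the same 285, 52 had no LSV in common between the diets. All LFD LSVs of these 52 are LFD-only by definition, so they are among the 146.

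By class, exon skipping (ES) occurred in 354 members (66.7%), alternative 3′ splice sites (A3SS) in 159 (29.9%), intron retention in 126 (23.7%) and alternative 5′ splice sites (A5SS) in 110 (20.7%). An LSV can carry several classes, and no LSV of either table without an intron carries the A5SS flag alone, so the A3SS count includes donor choices. Exon skipping was 72.4% of members in genes without an LFD LSV (95% exact binomial interval 63.6 to 80.0%) and 65.0% of those in genes with others (60.1 to 69.6%). A5SS was 13.0% (7.62 to 20.3%) in the first and 23.0% (19.0 to 27.4%) in the second. Intron retention was close in both, at 22.0% and 24.3%, and in the LSVs of both diets, at 25.5%. In the LFD-only set it was 14.9%, below the interval of the members as a whole (20.2 to 27.6%). The intervals cover counting of LSVs only, and LSVs of a gene are not independent.

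**Figure D1:**
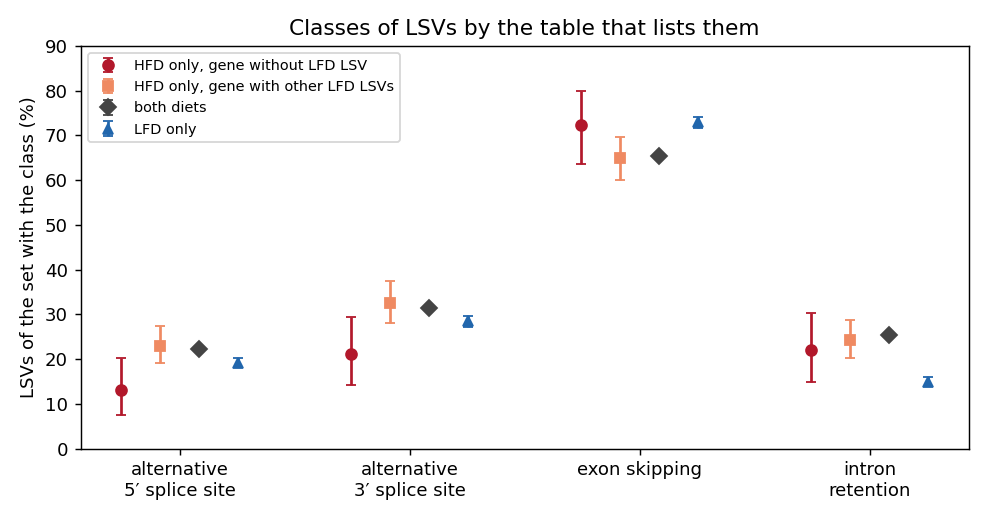
Share of LSVs carrying each class (vertical axis, percent) for HFD-only LSVs in genes without and with other LFD LSVs, LSVs of both diets and LFD-only LSVs; bars are 95% exact binomial intervals. Intron retention is 22.0%, 24.3%, 25.5% and 14.9% in that order, so the LFD-only set is the lowest.

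By coordinates, 138 members (26.0%) were simple cassettes, meaning that 1 exon is either kept or skipped and both of its links are listed or annotated. The share was 26.2% among LSVs of both diets and 30.9% among LFD-only LSVs. The exon length was a multiple of 3, which keeps the reading frame, in 42.0% of the members' cassettes. It was so in 42.4% of those of both diets and 49.1% of those of LFD only. Inclusion was intermediate, from 0.1 to 0.9, in 22.5% of the members' cassettes, compared with 10.9% for both diets and 21.5% for LFD only. Target LSVs that collect 2 or more donors of annotated first exons numbered 53 (9.98%), beside 6.20% for both diets and 7.39% for LFD only. The leading junction, the one with the highest PSI, lay in a 5′ UTR in 11.9% of members led by a junction, 5.74% of LSVs of both diets and 8.71% of LFD-only LSVs. It was absent from GENCODE M21 in 10.0%, 4.53% and 5.54%, respectively.

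Most members had 1 dominant form. The leading entry had a median PSI of 0.964 (lowest 0.264, highest 0.988), compared with 0.985 for LSVs of both diets on HFD and 0.964 for LFD-only LSVs. It reached at least 0.95 in 56.7% of members, 73.0% of LSVs of both diets and 56.9% of LFD-only LSVs. An entry between 0.1 and 0.9 was present in 158 members (29.8%), beside 16.5% of LSVs of both diets and 29.3% of LFD-only LSVs. In these measures the HFD-only and LFD-only sets lay close to each other and apart from the shared set.

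The members were also measured with fewer reads. The posterior variance gives an effective read number at an entry, PSI × (1 − PSI) / variance − 1. Each LSV was given the highest such number among its entries of PSI 0.1 to 0.9. The median of this number was 78.7 over members (lowest 37.7, highest 321), 70.0 in genes without an LFD LSV and 80.0 in the others. For LSVs of both diets it was 156 on HFD and 205 on LFD, and for LFD-only LSVs it was 91.7. The median posterior SD, taken over all entries of PSI 0.1 to 0.9, was 0.0437 in members and 0.0317 in LSVs of both diets on HFD.

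**Figure D2:**
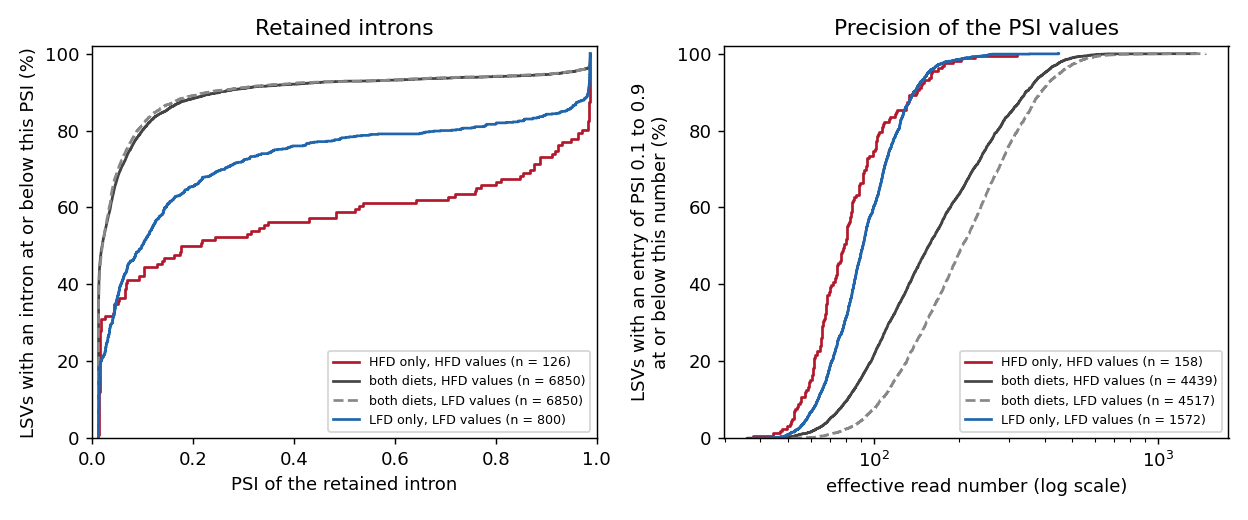
Cumulative share of LSVs (percent) by the PSI of the retained intron (left, LSVs with an intron) and by effective read number on a log axis (right, LSVs with an entry of PSI 0.1 to 0.9), for HFD-only LSVs, LSVs of both diets with the values of each diet, and LFD-only LSVs. The HFD-only introns reach a median PSI of 0.196, compared with 0.0197 for both diets on HFD, and the HFD-only effective read numbers have a median of 78.7, compared with 156.

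Retained introns took a larger share of their LSV in members than in the shared set. The intron was the leading entry in 53 of 126 members with an intron (42.1%), 7.40% of LSVs of both diets and 22.3% of LFD-only LSVs. Its median PSI was 0.196 in members, 0.0197 in LSVs of both diets on HFD and 0.0985 in LFD-only LSVs. In genes without an LFD LSV the intron led in 8 of 27 members with an intron (29.6%, interval 13.8 to 50.2%). In the other genes it led in 45 of 99 (45.5%, interval 35.4 to 55.8%). The median intron PSI was 0.0642 and 0.330, respectively. The 53 members lay in 43 genes. Their introns had a median length of 96 bp (18 to 2108 bp). The intron was absent from M21 as an intron in 35 of the 53 (66.0%), where it may be part of an annotated exon. This share was 47.7% of intron-led LSVs of both diets on HFD and 53.9% of intron-led LFD-only LSVs. Of the members' other leading introns, 7 lay between coding exons, 6 in a 5′ UTR, 3 in a 3′ UTR and 2 in noncoding transcripts. For annotated introns alone the intron led in 26.1% of members, 5.34% of LSVs of both diets and 16.2% of LFD-only LSVs. These introns were chosen with the members, so the shares describe the set and are not a test of the diet.

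Several intron-led members belonged to genes of known function. Pink1 encodes a kinase that marks damaged mitochondria for removal. Its 90-bp coding intron (chr4:138326090-138326179, minus strand) had a PSI of 0.987 from both of its exons. Pabpn1, a protein that binds the poly(A) tail in the nucleus, had a coding intron of 83 bp at 0.987. U2af2, the large subunit of the factor that recognises acceptors, had an 83-bp intron of the 3′ UTR at 0.987 (SD 0.000868). Gclm, the regulatory subunit of the enzyme that starts glutathione synthesis, had a 179-bp intron of the 5′ UTR at 0.986 (SD 0.00629). At these 4 genes the spliced junction stood near the lower bound, at 0.0125 to 0.0138. Per1, a repressor in the circadian clock, divided its reads almost evenly, with 0.530 (SD 0.0526) for a 156-bp intron and 0.470 for the junction. Skil, a brake on TGF-beta signalling, and Mybph, a myosin-binding protein of muscle, had no LSV on LFD and had introns at 0.983 and 0.986.

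The share of an intron depended on the exon from which it was measured. A 167-bp intron of Fn1, the matrix protein fibronectin, had a PSI of 0.924 in the member LSV and 0.0363 on HFD in the LSV of the other exon, where LFD had 0.0372. For Egln2, an oxygen-sensing hydroxylase, the values were 0.985 in the member and 0.129 on HFD and 0.0776 on LFD from the other exon. For Serpina3m, a liver-secreted serpin of a multi-copy cluster, they were 0.987, 0.0303 and 0.0125 in the same order. PSI is a share within 1 exon's reads, so a high value in a member does not give the intron's share at its other end.

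Among the genes without any LFD LSV, Pparg had 1 member. Its LSV at the common exon had a PSI of 0.771 for the junction from the PPAR gamma 2 first exon and 0.229 for the junction from the upstream exon of the other form (posterior SD 0.0483 for both). On HFD the PPAR gamma 2 junction was thus the larger share. The JUM table, in which the authors list events with a p-value under 0.05, holds the same pair of junctions. In that authors' deposited table the difference (HFD minus LFD) was 0.376 for the PPAR gamma 2 junction and -0.376 for the other, with a p of 0.00312 and an adjusted p of 0.0861, which does not pass 0.05. The table counts this first-exon choice as alternative 5′ splice sites.

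Other members of these 87 genes are given by the role of the gene. Cyp2b9, a cytochrome P450 that hydroxylates steroids and xenobiotics, had 3 members. A 142-base exon was included at 0.954 (SD 0.0183) from its upstream neighbour and 0.951 (SD 0.0191) from its downstream neighbour, so both ends gave the same value within their SDs. The exon length is not a multiple of 3. At another source exon the main junction took 0.884 (SD 0.0354) and 2 shorter junctions 0.0576 and 0.0582. Ugt2b37, which conjugates glucuronic acid to lipophilic molecules, included an extra 162-base exon at 0.150 (SD 0.0344) from one side and 0.211 (SD 0.0392) from the other. Ugt2b37 belongs to a multi-copy family, so its reads can be split among near-identical genes.

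Among regulators of transcription, Maff, a small partner of basic leucine zipper factors, joined 4 upstream exons to 1 exon. Their PSI was 0.826 (SD 0.0455), 0.102, 0.0691 and 0.0131. Nacc1, a BTB-domain repressor, divided a donor choice into 0.772 and 0.228 (SD 0.0532). E2f5, a transcriptional repressor of cell-cycle genes, took 0.886 from one upstream exon and 0.114 from the other (SD 0.0472). Crebzf, a cofactor of stress-response factors, had a leading junction at 0.672 (SD 0.0519) and a 3′ UTR junction at 0.324. These 4 genes each had an alternative form above 0.1 on HFD.

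Further genes encode signalling and RNA-processing proteins. Ptk2, the focal adhesion kinase, included a 21-base exon at 0.133 (SD 0.0458) and 0.135 (SD 0.0467) from its 2 ends. Arf6, a small GTPase of membrane traffic, kept a 100-bp intron of the 5′ UTR at 0.142 (SD 0.0486) and 0.0663 (SD 0.0362) from its 2 ends. Dhx38, a helicase needed for the second step of splicing, used its acceptors at 0.592 and 0.408 (SD 0.0583). Unkl, a zinc finger protein, included a 228-base exon at 0.202 (SD 0.0554) from one end and 0.447 (SD 0.0590) from the other, which differ by more than either SD.

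**Figure D3:**
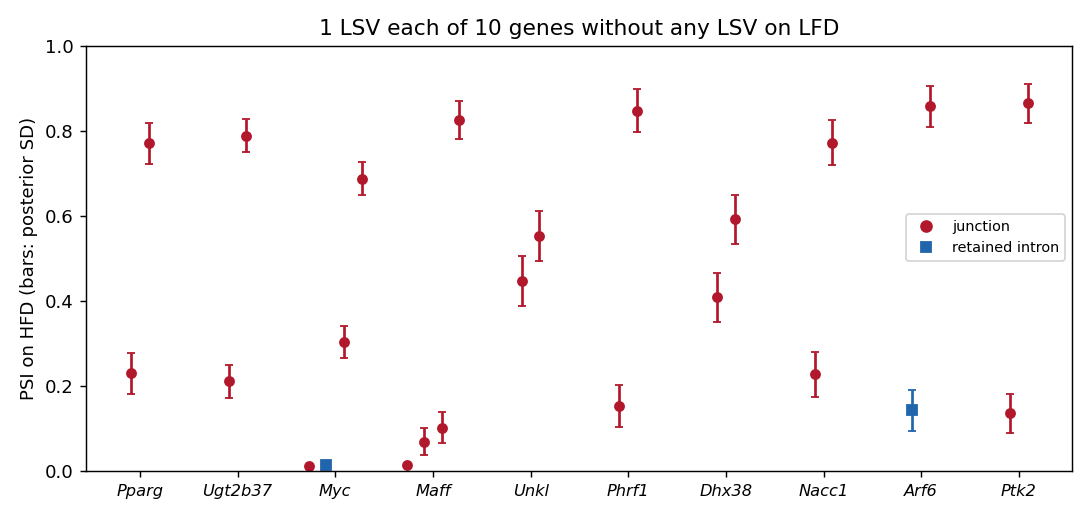
PSI on HFD (vertical axis) of every entry of 1 member LSV in each of 10 genes without an LFD LSV; circles are junctions, squares retained introns and bars the posterior SD. In Pparg the entries sit at 0.771 and 0.229, while in Unkl and Dhx38 they lie closer to each other.

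Nabp1, a single-stranded DNA binding protein of DNA repair, had 2 members around 1 acceptor that several donors reach. The leading junction had a PSI of 0.672 (SD 0.0369) from one exon and 0.866 (SD 0.0294) from the other, and the intron 0.176 and 0.102. The same junction has a difference of 0.2195 in the authors' deposited JUM table, with an adjusted p of 0.221. Some named genes with 2 or 3 members had near-complete use of 1 form. Ties between genes were broken by small posterior variance of the leading entry, so how common this is was not measured. Tgs1, which modifies the cap of small nuclear RNAs, skipped a 98-base exon at 0.962. Gda, the guanine deaminase, included a 28-base exon at 0.987 from both sides. Sh3pxd2a, a scaffold of invadopodia, included an 84-base exon at 0.985 and 0.986. S100pbp, a nuclear protein that binds a calcium sensor, had a leading intron of 108 bp at 0.917 (SD 0.0372).

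Some of the remaining genes with no LFD LSV used several forms. Odf3b, which resembles a protein of the sperm tail, had 1 LSV split into 0.515 (SD 0.0467) and 0.460 (SD 0.0466), the first for an annotated junction of a noncoding transcript. Gm12718, a predicted gene, joined 1 exon to a last exon 109000 bases away at 0.553 (SD 0.0525) from one end and 0.551 (SD 0.0524) from the other, and this junction is not in M21. Phrf1, a ubiquitin ligase, used acceptors at 0.847 and 0.153 (SD 0.0505), and Clasrp, which binds a kinase of splicing factors, used donors at 0.843 and 0.157 (SD 0.0440). Others had 1 form almost alone. Tmem238, a small membrane protein gene, skipped a 64-base exon of the 3′ UTR with inclusion of 0.0132 and 0.0587 from its ends. Zfp771, a zinc finger protein, skipped a 139-base exon with inclusion of 0.0142 and 0.0143. Slc39a4, an intestinal type of zinc importer, included a 285-base exon at 0.928 (SD 0.0313) and 0.944 (SD 0.0253), and Pspc1, a paraspeckle protein, a 302-base exon at 0.985. Over all 123 members of genes without an LFD LSV, the leading PSI was at least 0.95 in 59.3% and under 0.8 in 11.4%. Genes named here were picked partly by PSI and posterior variance, so the examples do not give these shares.

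In the 285 genes with other LFD LSVs, members with balanced forms included Prpf39, a protein of the U1 particle that recognises donors. All 3 of its members surround an exon whose junctions lie in a 3′ UTR of an annotated transcript. Skipping it took 0.698 (SD 0.0593) from the upstream exon and 0.363 (SD 0.0464) from the downstream exon, where inclusion took 0.419 (SD 0.0475). Introns beside it took 0.104, 0.308 and 0.218. Srsf11, a serine/arginine-rich splicing factor, included a 76-base exon at 0.103 (SD 0.0315) from one end and 0.0305 (SD 0.0192) from the other. Mvk, mevalonate kinase of cholesterol synthesis, joined its exon from one upstream exon at 0.728 and another at 0.272 (SD 0.0605). Agpat3, an acyltransferase of phospholipid synthesis, joined a first exon to either of 2 downstream exons of the 5′ UTR, at 0.677 and 0.323 (SD 0.0499). Mfn2, which fuses mitochondria, had a leading junction of the 5′ UTR at 0.795 (SD 0.0455).

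Gnat1, the alpha subunit of the rod photoreceptor G protein, had 3 members around 2 introns. A 117-bp intron took 0.522 (SD 0.0387) from one exon and 0.341 (SD 0.0376) from the other, and a 94-bp intron took 0.245 (SD 0.0481). Acceptor choices were divided as 0.733 and 0.267 (SD 0.0510) in Mbd6, a protein with a methyl-CpG binding domain, and 0.732 and 0.268 (SD 0.0532) in Snx13, a sorting nexin of endosomes. RP24-245K18.4, a noncoding gene, used its leading junction at 0.862 (SD 0.0338) from one exon and 0.705 (SD 0.0414) from the other. Lancl1, which conjugates glutathione, kept a 180-bp intron of the 5′ UTR at 0.705 (SD 0.0472).

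More members of this group carried a retained intron or a near-total form. Dmtf1, a transcription factor that acts on the Arf tumour suppressor, had 5 members, among them a 263-base exon included at 0.814 (SD 0.0492). BC024139 had 6 members, and their introns lay at 0.0418 to 0.0436. H2-Ke6, a short-chain dehydrogenase gene of the histocompatibility region, kept a 117-bp intron at 0.316 and 0.330 from its 2 ends. C4a, a copy of complement component 4, kept a 92-bp intron at 0.0925 and 0.128. Crtc2, a coactivator of gluconeogenic genes, Slc2a9, a urate transporter, and Nfil3, a clock-linked repressor, had leading junctions at 0.971, 0.962 and 0.983. Polg, the mitochondrial DNA polymerase, had a 28-bp intron at 0.984 that M21 does not list, and its partner Polg2 had a coding junction at 0.984 (SD 0.0102). Son, a splicing factor of nuclear speckles, had an 86-bp intron at 0.986 (SD 0.00581), and Hnrnpul1, an RNA-binding protein, had a leading coding junction at 0.955 (SD 0.0257).

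Gm20388 held the most members, 9. Its annotation spans 4435 kb of chromosome 8 and contains 207 other genes, 71 of them protein coding. Within it, 7 members lay inside Gm42047, a noncoding RNA on the same strand, and the introns listed there had PSI of 0.349 to 0.854. Another 2 lay over Sult5a1, a sulfotransferase gene on the opposite strand. Reads there cannot be assigned to Gm20388 alone. More generally, 31 members had an entry that is also listed on the opposite strand, such as a 173-bp intron under both Xylb (0.876) and Slc22a14 (0.877), and whether the counting used strand is not known from the labels or headers. Chd9, a chromatin remodeller, had 4 members around 2 introns of 39 bp between listed exons of 11 bases, at 0.762 to 0.949. A reference exon of 11 bases occurred in 16 members (3.01%), 0.171% of LSVs of both diets and 0.504% of LFD-only LSVs.

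The hand-written lists, chosen with earlier results of these data known, gave these counts. Over all genes with an LSV on either diet, 372 of 7186 (5.18%) held a member. Multi-copy liver families held a member in 17 of 81 genes. Splicing factors had 6 of 86 (Hnrnpul1, Prpf39, Pspc1, Son, Srsf11 and U2af2), insulin and glucose genes 3 of 45, mitochondrial genes 3 of 62 and lipid genes 2 of 73 (Pparg and Agpat3). Xenobiotic genes had 1 of 77 (Cyp2b9), cholesterol and bile acid genes 1 of 44 (Mvk), circadian genes 2 of 17, stress genes 2 of 59 (Gclm and Serpina3m) and cell cycle genes 0 of 21. Of hepatocyte markers, 14 of 15 had an LSV and 1 a member. Of other liver cell types, 6 of 24 macrophage, 5 of 20 endothelial, 3 of 20 stellate and 2 of 13 bile duct markers had an LSV, and Nrp1, an endothelial receptor for VEGF and semaphorins, was the only 1 of these with a member. Their part in the results was not tested.

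The major urinary proteins, pheromone carriers encoded by near-identical genes on chromosome 4, held 21 members in 12 genes. Chromosome 4 carried 11.5% of all members and 7.08% of LSVs of both diets. The leading junctions here often joined different gene copies. In Mup12 a junction of 854547 bp had a PSI of 0.982. Mup19 had 15 entries in 1 LSV, the highest at 0.264 (SD 0.0246), which was the lowest leading PSI of all members. Reads of such genes can map to several copies, so the gene and the junction are uncertain. The same holds for the alpha-1-antitrypsin cluster, where Serpina1a joined sites 93346 bases apart at 0.987 (SD 0.000316) and Serpina1b sites 33848 bases apart at 0.987 (SD 0.000143). Mup8, in contrast, had an annotated coding junction at 0.987 (SD 0.00205). Without these families and without Gm and Rik genes, 472 members remained.

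The presence rule does not use the PSI of LSVs of other exons, so the same junctions were looked up there. These entries can share reads with the members, so their values are not independent of the rule. Of the members, 125 had an entry in an LFD LSV of another exon of the gene, and 127 entries of 87 members had a PSI on both diets there. A difference of at least 0.2 with a 95% posterior interval that leaves out 0 was found at 5 of the 127 entries (3.94%), beside 0.417% of all 68110 entries of LSVs of both diets. At 0.1 it was 15 (11.8%), beside 2.87%, with 12 higher and 3 lower on HFD. Over all entries 1004 were higher and 949 lower. Except for Fam47e, the lower member entries were junctions of the Gmppb LSV whose intron was higher. The median size of the difference was 0.0156, compared with 0.00298 over all entries. Of the 127, 93 (73.2%) lay within 0.05, beside 89.3% of all entries. Without multi-copy families and Gm and Rik genes, 97 entries were left and 2 of them passed 0.2.

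Those 2 entries were in Gmppb and Fam35a. Gmppb makes GDP-mannose for protein glycosylation, and its 91-bp intron went from 0.624 (LFD) to 0.861 (HFD) as seen from the downstream exon, and 0.849 (SD 0.0453) in the member. The authors' deposited table of PSI differences lists the same intron from that exon, at 0.623 on LFD and 0.862 on HFD. Fam35a, a protein of DNA end protection in the shieldin complex, had a junction at 0.302 (LFD) and 0.530 (HFD), and 0.952 (SD 0.0270) in the member. The other 3 entries past 0.2 were in Mup genes, with 0.0125 and 0.318 in Mup-ps19, 0.0125 and 0.292 in Mup11, and 0.309 and 0.534 in Mup1 on LFD and HFD.

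Below 0.2, Nrp1 had 0.477 on LFD and 0.659 on HFD, a difference of 0.182 with a posterior SD of 0.0746. Chd3, a subunit of the NuRD chromatin complex, had 0.266 and 0.429. Syvn1, a ubiquitin ligase of the endoplasmic reticulum, had 0.278 and 0.384. A lower value on HFD was found for Fam47e, with 0.184 on LFD and 0.0618 on HFD. For Slc5a2, Rwdd4a, Cntrl and Rdh7 the member's intron differed at the other exon by 0.00153 between the diets in Slc5a2, and by less in the other three.

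**Figure D4:**
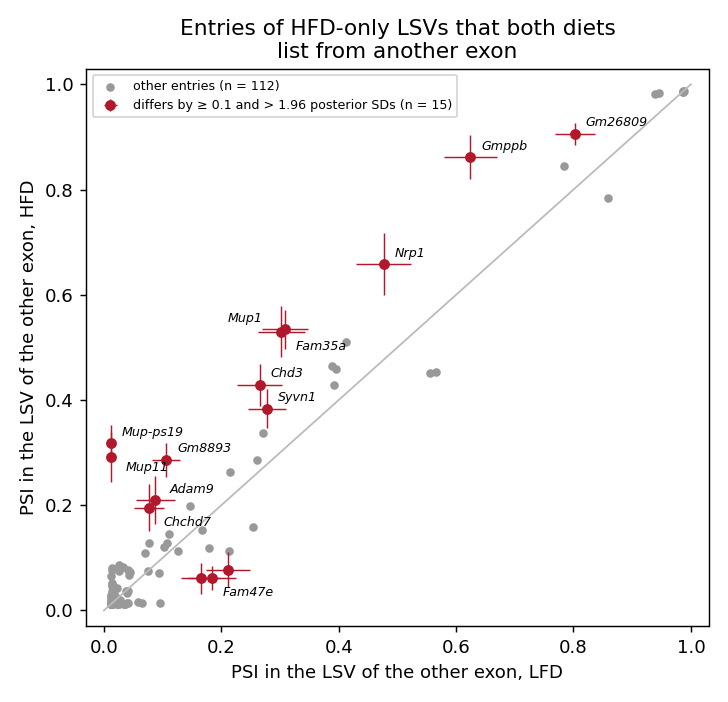
PSI on LFD (horizontal) and HFD (vertical) of the 127 member entries that both tables list from another exon; red points are the 15 that differ by at least 0.1 with a 95% posterior interval that leaves out 0, with bars of 1 posterior SD, and the line marks equality. Most of the others lie near the line, and 12 of the 15 red points lie above it.

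The precision of the diets was compared at LSVs that both tables hold. In genes with members, the effective read number on HFD was 0.863 of that on LFD (median over 461 entries in 97 genes), compared with 0.788 over all genes and 0.760 in genes with LFD-only LSVs. The ratio exceeded 1 in 27 of 97 member genes (27.8%) and in 9.96% of all genes. In genes with members and no LFD-only LSV it was 0.893, and in genes with LFD-only LSVs and no member 0.752. Presence of an LSV on 1 diet may itself depend on reads, so these ratios are not independent of how the genes were grouped. Mup12 and Mup15 had the highest ratios, 2.18 and 2.17, followed by BC024139 at 1.57. Cp, the copper carrier ceruloplasmin, had 1.25. Fewer transcripts and fewer sequenced reads cannot be told apart in these pooled values.

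The members were also looked up in the authors' own comparisons. The deposited table of PSI differences lists 124 LSVs, none of them a member, and 0.296% of LSVs of either PSI table are in it. Of the 124, 97 are in both PSI tables and 27 in neither, so no LFD-only LSV is listed either. These differences come from a separate run, and the 27 show that listing does not need presence in the PSI tables. Why no member is listed was not tested. The table of PSI differences lists another LSV of 16 of the 372 member genes, beside 104 of 7186 genes (1.45%). Among the 16 are Mup4, Mup13, Mup17, Mup19, Mup-ps19, Serpina1b, Serpina1c, Serpina3m, Gm8893 and Gm20388, whose reads can belong to other genes. The rest are Mylk, Cuta, H2-Q4, Polg, Cntrl and Gmppb. Of the 470 JUM events, some shared an entry with 10 of the 531 members, beside 754 of 32799 LSVs (2.3%). None of these events passed an adjusted p of 0.05, a limit that 0.308% of all LSVs meet through a shared entry. By gene name, 21 of the 372 member genes had a listed event, beside 347 of 7182 genes (4.83%). Past the limit there were 3, beside 63 of all genes (0.877%). These 3 were Cp, with a change of 0.0596 in a retained intron (adjusted p 0.00207), Errfi1, an inhibitor of the EGF receptor, with -0.0737 (adjusted p 0.000540), and Mcm10, a DNA replication factor, with 0.185 (adjusted p 0.000850). The rule used the same pooled tables, and the JUM values come from the same libraries, so the comparisons are not independent of the members.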

How the data were processed

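Hepatocyte RNA of 3 HFD and 3 LFD libraries was sequenced as paired ends. Per the submitters' processing notes, FastQC and STAR were used with the mm10 build; no version or read minimum was found in the labels or headers. Per the file headers, the PSI tables come from voila, the viewer of MAJIQ, with 1 posterior mean and variance per entry and diet. The authors deposited these PSI fractions pooled over the libraries of a diet, together with a table of PSI differences from a separate run and a JUM table of events with p-values and adjusted p-values. The JUM title line names a group NC in place of LFD, while the heading of its differences, HFD minus LFD, was followed here. Depth per library is unknown.

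From these tables, members were found by LSV identifier (whose source and target labels follow coordinates, so the direction was taken from the LSV type), and classes, PSI, posterior SD and effective read number were summarised in Python 3.11.15 with pandas 2.3.3. Shares have 95% exact binomial intervals (SciPy 1.17.1). Junctions were placed in GENCODE M21 (mm10), from whose transcripts the printed sequences come. JUM junction ends were shifted by 2 bases to match. The code for finding identifiers, for effective read numbers and for calling PSI differences was checked on planted values only. Classes, cassettes, the lookup at other exons and JUM matching were not checked in this way. The naming rule took members in the table of PSI differences or in JUM events past the adjusted p (none), genes without an LFD LSV with most members or the smallest posterior variance at PSI 0.2 to 0.8 (8 each), 8 genes with other LFD LSVs by that variance, 2 per class, up to 4 per list and the 6 largest differences at another exon; Unkl, Phrf1, Clasrp, Slc39a4, Lancl1, Chd3, Hnrnpul1, Sult5a1, Dhx38, Ptk2, E2f5, Fn1, Egln2, Pink1, Pabpn1, Skil, Mybph, Dmtf1, BC024139, Xylb, Slc22a14, Syvn1, Fam47e, Slc5a2, Rwdd4a, Cntrl, Rdh7, Mup12, Cp, Errfi1, Mcm10, Arf6 and Maff were added after their values were seen. A few junctions are not reported here. The members and lists were chosen with earlier results of these data known.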

Additional observations from a re-analysis of the deposited data

How the results depend on the processing

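Matching LSVs by their coordinates within a gene left 523 members, and matching by overlap of the reference exon or of genes by name left 531 and 123 as they were. Without multi-copy families and Gm and Rik genes there were 472 members, introns led 39.6% of intron LSVs, and 2 rather than 5 entries passed 0.2 at another exon. In LSVs of 2 entries A5SS occurred in 9.56% of members, A3SS in 22.0% and ES in 61.0%. In members with an entry of PSI 0.1 to 0.9, A5SS occurred in 32.9%, A3SS in 39.9% and intron retention in 30.4%. For introns listed in M21 the share that led was 26.1%. Over entries of any PSI the median posterior SD was 0.0176, and the median effective read number of each LSV's highest entry was 141. With a limit of 0.1 for the difference, 15 entries passed. Matching JUM by gene name gave 3 genes past the adjusted p. The ratio of effective reads ran from 0.852 to 0.876 over its alternatives. Of 28 alternatives, 16 stayed within the interval or within 1.5 times the reported value. The cause in the others was not tested. The alternatives without multi-copy families (beyond the count of members), without exons of 11 bases and with introns in M21 only were chosen after seeing the data. No paired analysis was possible because the values are pooled per diet, and for the same reason no library could be left out. Reads limit all values: members had a median effective read number of 78.7.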
